A study of Mus musculus with 19 samples.

Results

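Ubiquitin-specific proteases were followed in the hearts of mice with and without a working circadian clock in their cardiomyocytes, on 2 diets. Members were all probes whose symbol in the deposited table begins with Usp and a digit. They numbered 103 of 46643 probes and carried 50 of the 34509 symbols in the table. Of these, 63 probes for 39 symbols were detected (detection p under 0.05) on at least 4 of the 19 arrays and were tested. The other 40 probes comprised 36 that were detected on no array and 4 detected on 1 to 3 arrays. All probes of 11 symbols fell among those 40, namely Usp26, Usp27x, Usp31, Usp34, Usp35, Usp38, Usp43, Usp44, Usp49, Usp50 and Usp9y. Usp18 was not analysed here.

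The mice were of the FVB/N strain, and total heart RNA of each animal was hybridised to 1 single-colour bead array. CCM mice are transgenic animals that lack a working clock in cardiomyocytes, so other cells of the heart kept theirs. They are known to carry a dominant-negative form of CLOCK under a promoter active in cardiomyocytes. The groups were 5 CCM animals on a high fat diet, 4 WT animals on the high fat diet, 5 CCM animals on a normal diet and 5 WT animals on the normal diet. Feeding lasted 16 weeks, and hearts were taken at ZT 18. With 1 time of day, a lower level cannot be told apart from a shifted daily rhythm. In whole-heart RNA, fewer cells of a type and less RNA per cell cannot be told apart either.

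Ubiquitin is a small protein that is joined to other proteins by a cascade of E1, E2 and E3 enzymes, often as chains that send the target to the proteasome. Ubiquitin-specific proteases, the largest family of deubiquitinases, cut it off again and so spare, recycle or relocate their targets. In the circadian clock, ubiquitin ligases set how long PER and CRY proteins last. Usp2 opposes such marks on clock proteins, and its transcript is itself driven by the clock in many mouse tissues. Usp6nl carries the prefix but is a GTPase-activating protein for Rab proteins, and Usp39, Usp52, Usp53 and Usp54 have long been classed as having little or no protease activity. Both probes labelled Usp52 matched the RefSeq transcript of Pan2, which takes part in shortening of poly(A) tails. By transcript accession, 86 of the 103 probes matched a RefSeq gene and 17 did not.

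Promoters are shown for the 4 genes with a called genotype difference, Usp2, Usp46, Usp54 and Usp20. Each sequence holds the 250 bases before 1 RefSeq start of that gene on GRCm38.p6, 5′ to 3′ on the strand of the gene. Any other start of these 4 genes was not searched. Capitals mark matches to motifs that clock-controlled factors are known to bind. The motifs searched on both strands were the E-box CACGTG, the related CACGTT, the D-box TTANGTAA and AGGTCA and GGGTCA, which nuclear receptors bind.
Usp2, chr9:44084670-44084919, plus strand: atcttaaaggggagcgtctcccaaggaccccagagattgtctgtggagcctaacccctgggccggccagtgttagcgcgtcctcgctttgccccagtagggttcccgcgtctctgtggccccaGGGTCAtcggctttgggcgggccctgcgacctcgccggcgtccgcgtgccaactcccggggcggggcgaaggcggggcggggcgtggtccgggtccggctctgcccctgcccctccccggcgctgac
Usp46, chr5:74068412-74068661, minus strand: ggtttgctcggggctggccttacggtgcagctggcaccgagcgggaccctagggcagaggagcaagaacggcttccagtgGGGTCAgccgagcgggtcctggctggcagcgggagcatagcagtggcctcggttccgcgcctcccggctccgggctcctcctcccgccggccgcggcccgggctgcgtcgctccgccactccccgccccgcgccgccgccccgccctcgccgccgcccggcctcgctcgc
Usp54, chr14:20618355-20618604, minus strand: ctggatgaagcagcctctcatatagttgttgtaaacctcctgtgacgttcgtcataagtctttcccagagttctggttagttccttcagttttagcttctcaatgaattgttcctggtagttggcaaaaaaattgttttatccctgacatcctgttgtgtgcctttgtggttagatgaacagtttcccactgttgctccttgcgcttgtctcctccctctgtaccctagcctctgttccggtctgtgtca
Usp20, chr2:30982029-30982278, plus strand: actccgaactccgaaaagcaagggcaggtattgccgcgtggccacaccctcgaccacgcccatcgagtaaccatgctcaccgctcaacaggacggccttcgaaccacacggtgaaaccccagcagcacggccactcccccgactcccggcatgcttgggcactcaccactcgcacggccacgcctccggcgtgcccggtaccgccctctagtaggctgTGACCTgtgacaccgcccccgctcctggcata

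Positions are counted from the start used for each gene, the base before it being -1. GGGTCA began at -127 in Usp2 and at -170 in Usp46. Usp20 held TGACCT, the reverse complement of AGGTCA, from -32. None of the 5 motifs was found in the Usp54 window. Of 32851 mouse promoters of this length, 11.6% held GGGTCA, 14.0% held AGGTCA, 6.02% the E-box, 3.85% CACGTT and 2.06% the D-box. Among 45 promoters of 44 Usp symbols, GGGTCA stood in 3 (Usp2, Usp32 and Usp46), AGGTCA in 3, the E-box in 4, CACGTT in 2 and the D-box in 0. The 4 promoters with an E-box were those of Usp16, Usp31, Usp4 and Usp6nl. These matches are descriptions of letters and are not tied to the values below by any test.

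Arrays had mean signals of 419 to 580 and detected between 17117 and 18731 probes. A Clock probe, which checks the genotype labels, read 15.27 ± 0.18 in CCM hearts (SD, n = 10) and 7.52 ± 0.86 in WT hearts (SD, n = 9) on the log2 scale, without overlap. A second Clock probe (ILMN_2610973) read 11.215 ± 0.14 in CCM hearts and 10.73 ± 0.11 in WT hearts (SD, n = 10 and 9). Its lowest CCM value, 10.976, lay just below its highest WT value, 10.979. The remaining Clock probe was detected on 0 arrays. All 7 cardiomyocyte markers were measured, 0 of them differed between genotypes on either diet, and their summed signal was 230578 to 252852 over all animals. Erythroid markers (6 of 6 measured) summed to 84354 to 111500 in CCM hearts and 101022 to 108799 in WT hearts on the high fat diet. The erythroid sums on the normal diet were 61089 to 90766 in CCM hearts and 91897 to 108682 in WT hearts, ranges that did not overlap. Smooth muscle markers (4 of 5 measured) summed to 6982 to 10707 in CCM hearts and 11163 to 17636 in WT hearts on the high fat diet, again without overlap, and to 8733 to 11671 in CCM hearts and 10017 to 15794 in WT hearts on the normal diet. Acta2 was the 1 smooth muscle marker called, lower in CCM hearts on high fat by 0.69 on the log2 scale (adjusted p = 0.0451). On average over both diets Acta2 was lower by 0.49 (adjusted p = 0.0199). The 4 genes listed as smooth muscle markers include Des, which is not restricted to smooth muscle and counts in the sums above. Their median difference was -0.43 on high fat, with 3 lower in CCM hearts, and 0.09 on the normal diet, with 2 lower. On high fat Acta2, Tagln and Myh11 were lower in CCM hearts by 0.69, 0.44 and 0.42, and only Des was higher, by 0.36. The normal diet gave mixed directions. There Myh11 and Tagln were higher by 0.19 and 0.21, and Acta2 and Des lower by 0.28 and 0.0085. All 6 erythroid markers were lower in CCM hearts on each diet, and 0 were called. Their median difference was -0.21 on high fat, -0.65 on the normal diet and -0.42 averaged over both diets. Of 8 macrophage markers measured (10 listed), 2 had lower means in CCM hearts on high fat, with a median difference of 0.04, and all 8 did on the normal diet, with a median of -0.27. The 3 adipocyte markers measured (6 listed) had a median difference of -0.58 on high fat and 0.69 on the normal diet. Medians of endothelial, fibroblast and skeletal muscle markers lay between -0.09 and 0.17 on each diet, and 0 markers of these 3 types, of macrophages or of adipocytes were called. The part of these cell types in the differences below was not tested. Animal numbers in the labels fell below and above 20 in every group, but not evenly between the genotypes. Animals under and over 20 numbered 3 and 2 in each CCM group. They numbered 2 and 2 in the WT high fat group and 2 and 3 in the WT normal diet group. Values within each part are given where a result rests on them. Values below are log2 normalized signals, and differences between groups are differences of log2 values. Tests are limma's moderated tests, adjusted by Benjamini-Hochberg over all 19840 probes tested, and a probe with an adjusted p under 0.05 is called. The error after a difference is its standard error.

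Usp2, the member known as clock-controlled, was lower in CCM hearts. Of its 4 probes, ILMN_1240264 and ILMN_2466316 were detected on all 19 arrays and the other 2 on none, including the only probe designed on a different Usp2 transcript. Probe ILMN_1240264 read 10.08, 9.72, 10.10, 9.89 and 10.36 in CCM hearts on the high fat diet, against 11.37, 10.55, 10.54 and 10.94 in WT hearts on that diet. On the normal diet it read 10.76, 10.72, 10.59, 10.37 and 9.73 in CCM hearts and 10.77, 11.19, 11.29, 11.05 and 11.23 in WT hearts. Every CCM heart lay below every WT heart of the same diet. In 1 of the CCM hearts on the normal diet the signal lay well below the other 4 of its group, close to the CCM hearts on high fat.

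The group means of this probe were 10.03 ± 0.24 in CCM hearts on high fat (SD, n = 5), 10.85 ± 0.39 in WT hearts on high fat (SD, n = 4), 10.43 ± 0.42 in CCM hearts on the normal diet and 11.11 ± 0.21 in WT hearts on the normal diet (SD, n = 5 each). The genotype difference was -0.82 ± 0.20 on the high fat diet (adjusted p = 0.0485) and -0.67 ± 0.19 on the normal diet (adjusted p = 0.113). Only the high fat difference was called, and leaving out any 1 of 14 animals of the 19 ended that call (highest adjusted p = 0.200, without replicate 1 of the WT high fat group). Among animals numbered under 20 the high fat difference was -0.99 (adjusted p = 0.169) and the normal diet difference -0.29 (adjusted p = 0.619). Among those numbered over 20 the high fat difference was -0.61 (adjusted p = 0.975) and the normal diet difference -1.14 (adjusted p = 0.101). The order of the diets thus differed between the parts, but each part held only 2 or 3 animals per group. None of these differences was called, and the change of order was not tested. The difference of the differences was -0.14 (interval -0.73 to 0.44, adjusted p = 0.9999), so no change of the genotype difference with diet was shown. Its sign was positive, at 0.03, without replicate 1 of the WT high fat group.

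Averaged over both diets, Usp2 fell by 0.75 ± 0.14 on the log2 scale in CCM hearts, which is 1.68-fold lower (adjusted p = 0.00257). Probe ILMN_2466316 was also lower in CCM hearts. It read 7.002, 6.82, 7.09, 7.07 and 7.73 in CCM hearts and 8.35, 7.55, 7.75 and 7.77 in WT hearts on high fat. On the normal diet it read 7.51, 7.76, 7.34, 7.61 and 6.75 in CCM hearts and 7.84, 8.39, 8.44, 7.79 and 8.61 in WT hearts. The groups did not overlap on the normal diet, whereas on high fat 1 of the CCM hearts lay within the WT range. The average difference was -0.76 ± 0.16, or 1.70-fold lower in CCM hearts (adjusted p = 0.00557). The differences on high fat (-0.71, adjusted p = 0.177) and on the normal diet (-0.82, adjusted p = 0.0716) were not called. Their order was the reverse of that with ILMN_1240264. For ILMN_1240264, the average difference was -0.64 among animals numbered under 20 (adjusted p = 0.131) and -0.88 among those numbered over 20 (adjusted p = 0.0648), so neither part alone passed the test. The average difference of ILMN_2466316 was not called within either part either (highest adjusted p = 0.265).

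**Figure D1:**
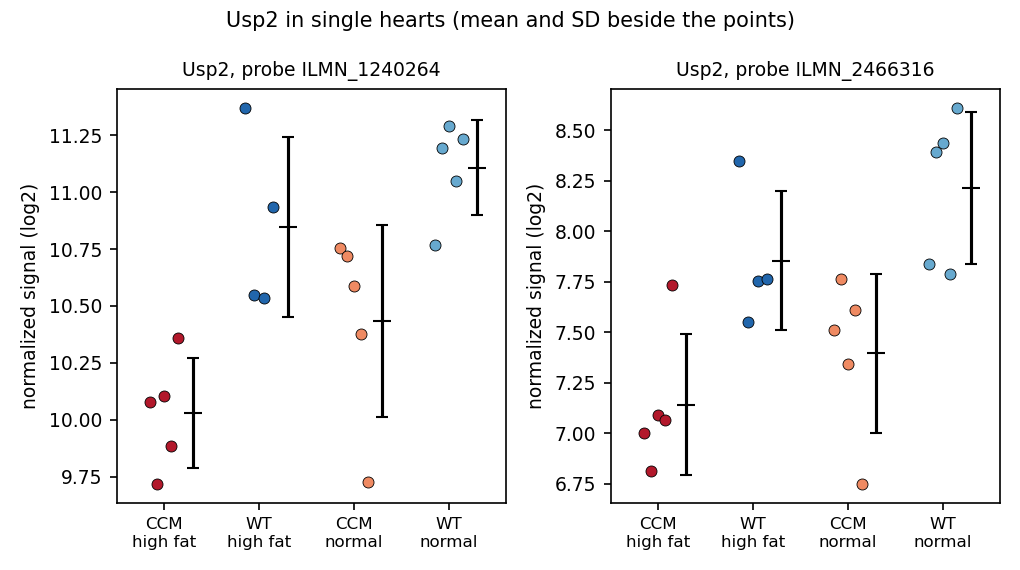
Usp2 signal (log2, normalized) of both detected probes in each heart, with the 4 groups on the x axis, a point per animal and the group mean with SD beside the points. For ILMN_1240264 every CCM heart is below every WT heart on the same diet, and for ILMN_2466316 this holds on the normal diet.

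Across all members, 5 of 63 probes were called in the genotype comparison averaged over both diets, where 4.15% of all probes tested were called. Of the 5, 4 were lower in CCM hearts (2.17% of all probes were) and 1 was higher (1.99% of all probes were). The 4 lower ones were both Usp2 probes, Usp46 and Usp54, and the higher one was Usp20. With animal number under or over 20 as a block 8 were called, beside 5.26% of all probes. Among animals numbered under 20 alone 0 were, beside 1.24% of all probes, and among those over 20 alone 0, beside 0.872%. On the high fat diet alone 1 of 63 was called (Usp2), beside 1.59% of all probes, and on the normal diet alone 1 of 63 (Usp46), beside 1.45%. The median difference over the 63 probes, averaged over diets, was 0.0045 and that over all probes 0.0038 (log2). An unadjusted p under 0.05 was reached by 12 of 63 member probes, beside 13.1% of all probes. On high fat alone it was 8 of 63 beside 9.57%, and on the normal diet alone 9 of 63 beside 8.67%. Within groups the median SD of the member probes was 0.216, and 0.218 over all probes.

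**Figure D2:**
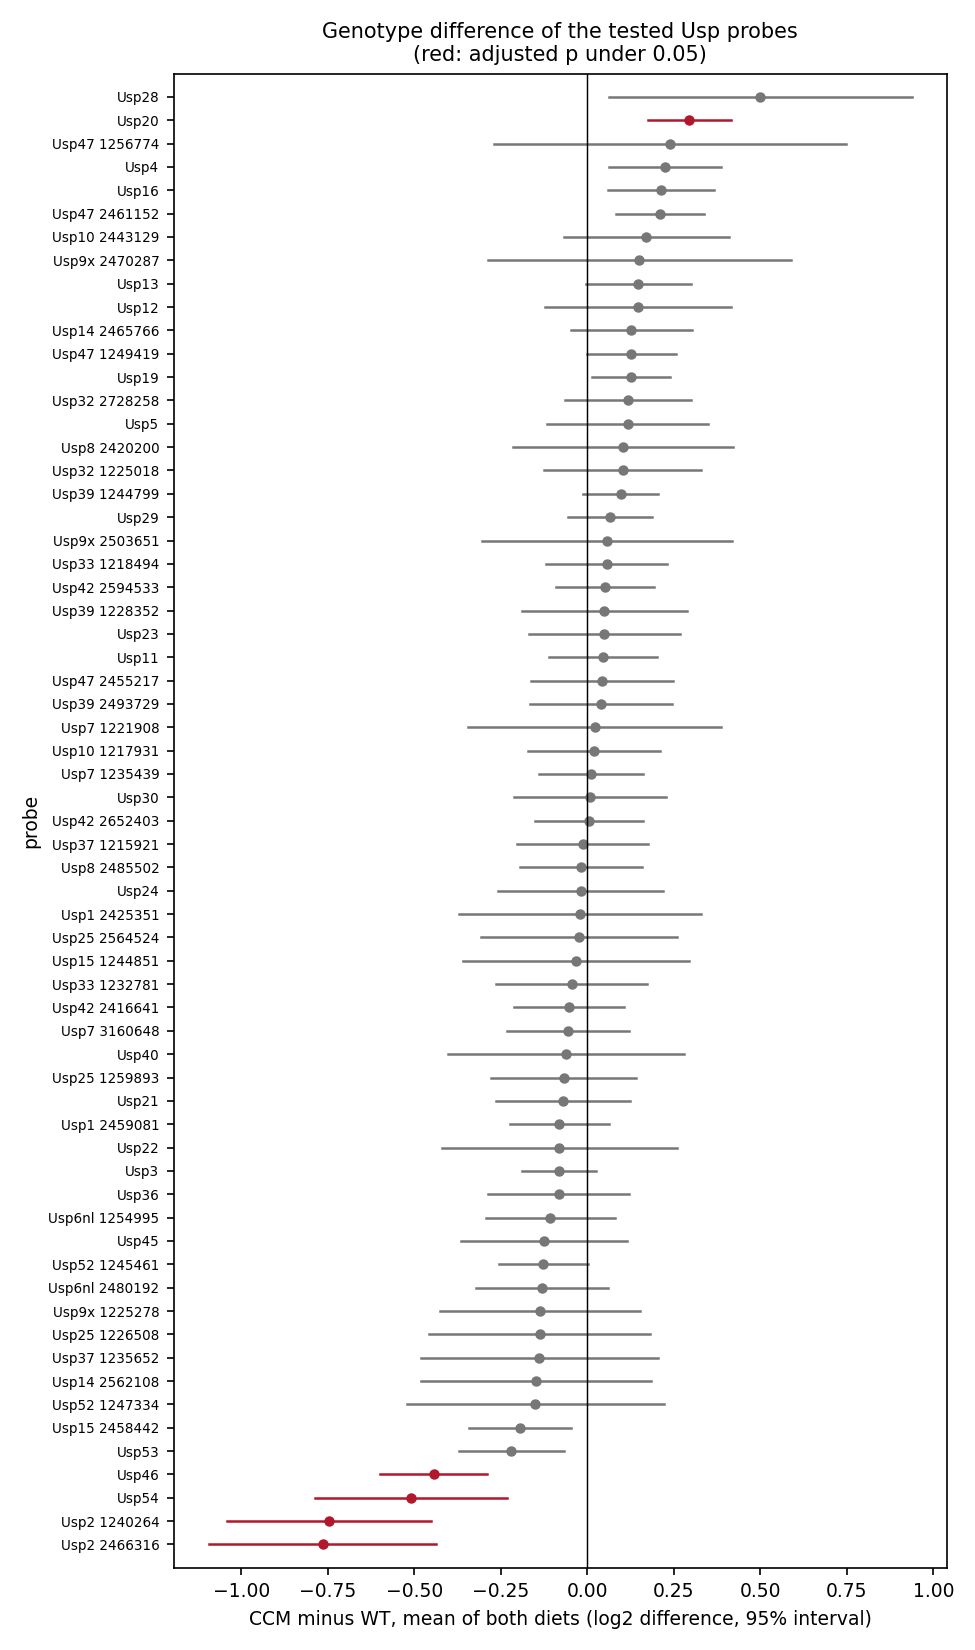
Genotype difference (CCM minus WT, mean of both diets, log2) of the 63 tested Usp probes, with 95% intervals; the 5 called probes are red, and numbers after a symbol tell its probes apart. The 2 Usp2 probes, Usp54 and Usp46 lie farthest to the left, and Usp20 is the only called probe to the right of 0.

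Usp46 is a deubiquitinase that is active when bound to the WD-repeat proteins WDR48 and WDR20, and in mouse brain it has been linked to neurotransmitter receptors and behaviour. It read 6.91, 7.05, 7.23, 7.11 and 7.31 in CCM hearts on high fat and 7.38, 7.41, 7.64 and 7.70 in WT hearts on high fat. On the normal diet it read 7.13, 6.97, 7.38, 7.21 and 7.30 in CCM hearts, against 7.87, 7.68, 7.53, 7.68 and 7.61 in WT hearts. The genotypes did not overlap on either diet. Its average fell by 0.44 ± 0.074 on the log2 scale in CCM hearts, 1.36-fold lower (adjusted p = 8.57e-04), the smallest p among the members. The difference was -0.41 ± 0.11 on high fat (adjusted p = 0.0678) and -0.48 ± 0.10 on the normal diet (adjusted p = 0.0169), and the test of their difference gave an adjusted p of 0.9999. The normal diet call ended within each part of the animal numbers (-0.62 under 20 and -0.35 over 20), with arrays shifted to equal medians, with only the groups of the comparison, when the 3 dimmest arrays were dropped. It also ended without any 1 of 3 animals (highest adjusted p of these = 0.0591, without replicate 1 of the WT normal diet group). The average was -0.48 among animals numbered under 20 (adjusted p = 0.0856) and -0.40 among those numbered over 20 (adjusted p = 0.0877).

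Usp54, one of the members long classed as having little or no protease activity, was also lower in CCM hearts. Its tested probe read 8.75, 8.99, 8.17, 8.78 and 8.43 in CCM hearts and 8.83, 8.95, 9.24 and 9.49 in WT hearts on high fat, and 8.21, 8.28, 8.54, 8.52 and 8.99 in CCM hearts and 9.43, 8.82, 8.997, 9.17 and 8.68 in WT hearts on the normal diet. Single hearts of the 2 genotypes overlapped on each diet. The average difference was -0.51 ± 0.13, 1.42-fold lower in CCM hearts (adjusted p = 0.0321). This call ended without any 1 of 9 animals (highest adjusted p = 0.0845, without replicate 4 of the WT high fat group). It also ended with no detection filter (adjusted p = 0.0672) and with arrays shifted to equal medians (adjusted p = 0.0602). The difference was -0.52 among animals numbered under 20 (adjusted p = 0.294) and -0.48 among those numbered over 20 (adjusted p = 0.244). Its second probe was detected on no array.

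Usp20, which returns internalised receptors such as the β2-adrenergic receptor to the cell surface, was the 1 called member that rose in CCM hearts. It read 11.49, 11.29, 11.44, 11.31 and 11.48 in CCM hearts and 10.95, 11.21, 11.15 and 11.18 in WT hearts on high fat. On the normal diet it read 11.41, 11.44, 11.25, 11.24 and 11.45 in CCM hearts and 10.93, 11.12, 11.15, 11.02 and 11.03 in WT hearts. Every one of the 10 CCM hearts lay above every one of the 9 WT hearts, which held for 1 of 63 member probes and for 1.07% of all probes tested. The rise was small, 0.29 ± 0.057 or 1.23-fold (adjusted p = 0.00365). It was 0.28 ± 0.084 on high fat (adjusted p = 0.132) and 0.31 ± 0.079 on the normal diet (adjusted p = 0.0600). The rise was 0.33 among animals numbered under 20 (adjusted p = 0.201) and 0.26 among those numbered over 20 (adjusted p = 0.282). It was not called when arrays were shifted to equal medians instead of quantile normalized (difference 0.26, adjusted p = 0.236).

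**Figure D3:**
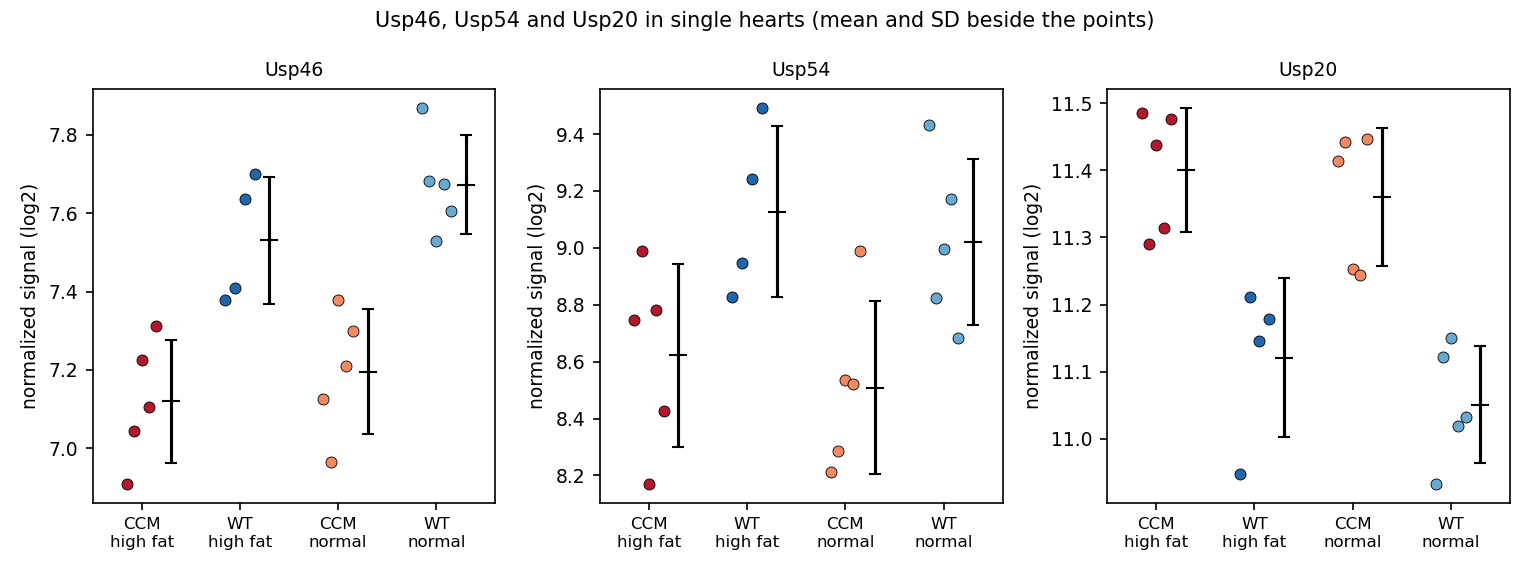
Usp46, Usp54 and Usp20 signal (log2, normalized) in each heart, with the 4 groups on the x axis, a point per animal and the group mean with SD beside the points. CCM hearts are below WT hearts for Usp46 on both diets, overlap with them for Usp54, and are above all WT hearts for Usp20.

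The remaining members are given by role, with 1 probe per symbol, the detected one with the highest mean. Counts are of the genotype comparison averaged over both diets, in which 4.5% of 15491 symbols were called on the same 1 probe per symbol. In the group that trims chains at the proteasome or recycles free ubiquitin (Usp14, Usp5 and Usp13), 0 of 3 were called and the median difference was 0.13. The differences were 0.13 ± 0.084 for Usp14, a subunit-like partner of the proteasome, 0.12 ± 0.11 for Usp5, which takes apart unanchored chains, and 0.15 ± 0.072 for its close relative Usp13. The other tested Usp14 probe, ILMN_2562108, was dimmer and had a negative average difference. It read 5.46 to 6.73 in CCM hearts and 5.64 to 6.69 in WT hearts. Among proteases that act on histones and other nuclear proteins, 0 of 7 measured (of 11 listed) were called, with a median of -0.07. Usp16, which removes ubiquitin from histone H2A, differed by 0.21 ± 0.073 (adjusted p = 0.137), and by 0.24 with animal number as a block (adjusted p = 0.0266). Usp22, the protease of the SAGA complex, differed by -0.08 ± 0.16, and the 3 probes of Usp7, a regulator of MDM2 and p53, by -0.056 to 0.022.

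In the group that acts in DNA repair or is activated by WDR48 (Usp1, Usp12, Usp45, Usp46 and Usp47), 1 of 5 was called, Usp46, and the median was -0.08. Usp12, the closest relative of Usp46, differed by 0.15 ± 0.13 (adjusted p = 0.785). Usp47, which acts on DNA polymerase β, had 4 tested probes with differences of 0.04 to 0.24. Its probe ILMN_2461152 missed the threshold at 0.21 ± 0.061 (adjusted p = 0.0617), and passed it in 7 of the other settings tried. Among members that work at endosomes, membranes or organelles, 1 of 8 measured (of 9 listed) was called, Usp20, with a median of 0.06. Usp33, a close relative of Usp20, differed by 0.06 ± 0.083 with probe ILMN_1218494 and by -0.05 ± 0.10 with probe ILMN_1232781. Usp19, which is anchored in the endoplasmic reticulum, differed by 0.13 ± 0.054 (adjusted p = 0.292), and its CCM and WT values did not overlap on the normal diet. Usp30, which opposes removal of mitochondria, differed by 0.01 ± 0.10, and the 3 probes of Usp9x ran from -0.14 to 0.15.

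Among members tied to signalling or the stability of transcription factors, 1 of 8 measured (of 10 listed) was called, Usp2, with a median of 0.01. Usp28, which stabilises MYC, showed the largest positive difference of any member, 0.50 ± 0.21 (interval 0.06 to 0.94, adjusted p = 0.270), and it was not called. It read 8.51, 8.21, 8.48, 7.39 and 7.61 in CCM hearts and 8.24, 7.90, 7.02 and 7.55 in WT hearts on high fat, and 8.81, 8.32, 8.48, 7.82 and 7.69 in CCM hearts and 8.10, 7.96, 7.08, 7.75 and 7.07 in WT hearts on the normal diet. With animal number as a block its difference was 0.38 (adjusted p = 0.0365) and with array weights 0.69 (adjusted p = 0.0409), both past the threshold. Usp4, a protease of the TGF-β receptor, differed by 0.22 ± 0.077 (adjusted p = 0.139) and was past the threshold only with array weights (0.26, adjusted p = 0.0337). Usp15, its relative, differed by -0.19 ± 0.070 with probe ILMN_2458442 (adjusted p = 0.167). Usp25 had 3 tested probes with differences of -0.14 to -0.02. Of the members long classed as having little or no protease activity, 1 of 4 measured was called, Usp54, with a median of -0.17. Usp53, a protein of cell junctions, differed by -0.22 ± 0.072 (adjusted p = 0.114), and the 3 probes of the splicing factor Usp39 by 0.04 to 0.10.

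Each genotype difference can be set against the other diet without shared animals. The 2 diets gave the same sign for 43 of 63 member probes (68.3%) and for 59.5% of all probes. The correlation between both diets was 0.74 across the 63 probes and 0.58 across all probes, a description over probes of the same arrays that are not independent replicates. CCM and WT values did not overlap for 6 of 63 member probes on high fat, where 4.75% of all probes did so. These were Usp20 and Usp4, higher in CCM hearts, and Usp53, Usp15, Usp46 and Usp2 (ILMN_1240264), lower. On the normal diet 5 of 63 did not overlap, beside 2.74% of all probes, namely Usp19 and Usp20, higher in CCM hearts, and Usp46 and both Usp2 probes, lower.

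**Figure D4:**
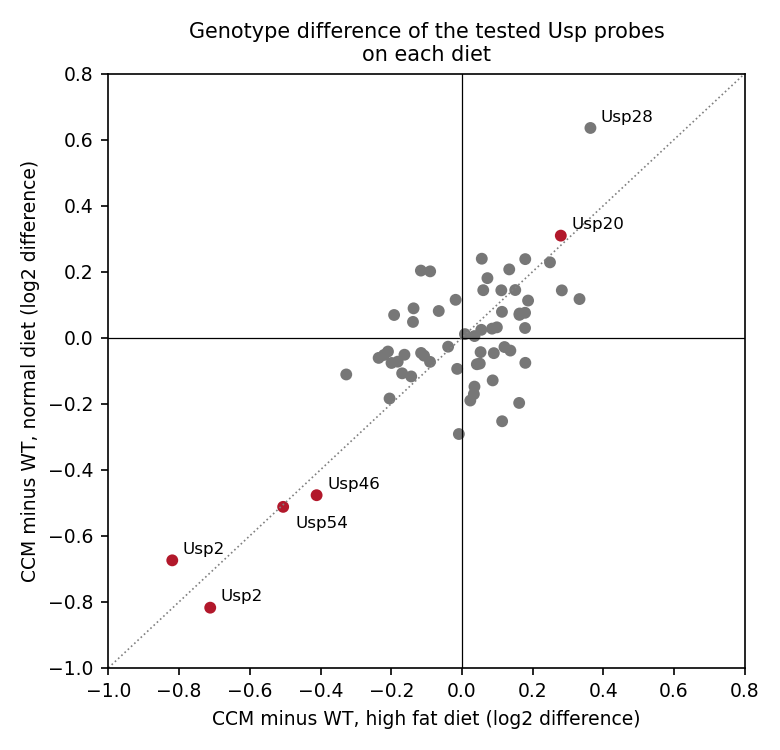
Genotype difference (CCM minus WT, log2) of the 63 tested Usp probes on the high fat diet (x axis) and on the normal diet (y axis), with the 5 probes called in the average of both diets in red and equal differences on the dotted line. The called probes lie near that line, and most other probes lie within 0.4 of 0 on both axes.

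No member was called for diet. The count was 0 of 63 between high fat and normal diet in CCM hearts, in WT hearts and averaged over genotypes, beside 0.0151%, 0.0252% and 0.242% of all probes. At an unadjusted p under 0.05, 5 of 63 passed in CCM hearts (8.45% of all probes), 0 in WT hearts (2.97%) and 1 on average (7.91%). The 5 in CCM hearts were 1 probe each of Usp8, Usp47, Usp33, Usp16 and Usp2. The other tested probes of Usp8, Usp47, Usp33 and Usp2 did not pass. Usp8, which sorts receptors at endosomes, read with probe ILMN_2485502 9.44, 9.57, 9.59, 9.55 and 9.71 in CCM hearts on high fat and 9.23, 9.36, 8.96, 9.23 and 9.34 in CCM hearts on the normal diet, with no overlap. Its values were 9.44, 9.60, 9.55 and 9.04 in WT hearts on high fat and 9.44, 9.45, 9.60, 9.10 and 9.52 in WT hearts on the normal diet, which overlapped. The diet difference of this probe was 0.35 ± 0.12 in CCM hearts (adjusted p = 0.584) and -0.01 ± 0.12 in WT hearts (adjusted p = 0.9998). It was the 1 member probe of 63 without overlap between diets in CCM hearts, beside 1.24% of all probes, and in WT hearts there were 0, beside 1.18%. The other tested probe of Usp8, ILMN_2420200, did overlap. In CCM hearts it read 5.56 to 6.56 on high fat and 5.46 to 6.32 on the normal diet.

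For Usp2, high fat minus normal diet was -0.40 ± 0.19 in CCM hearts and -0.26 ± 0.20 in WT hearts with probe ILMN_1240264, and -0.33 ± 0.14 on average (adjusted p = 0.594). The average interval was -0.63 to -0.04. With the other detected probe, ILMN_2466316, the diet difference was -0.36 in WT hearts and less negative in CCM hearts. The order of the genotypes was thus the reverse of that with ILMN_1240264. Usp16 differed by 0.22 ± 0.10 and Usp33 (ILMN_1218494) by -0.28 ± 0.11 with diet in CCM hearts, and Usp47 (ILMN_2455217) by -0.35 ± 0.13. The same differences in WT hearts were 0.08, 0.01 and -0.03. That Usp47 probe was dim, at 5.43 to 6.37 in CCM hearts. The brighter Usp47 probe ILMN_2461152 read 10.93 to 11.12 in CCM hearts on high fat and 10.80 to 11.20 on the normal diet. For ILMN_1249419 these ranges were 11.13 to 11.46 and 10.99 to 11.27, and for ILMN_1256774 6.66 to 7.99 and 6.65 to 8.36. The genotype by diet interaction was called for 0 of 63 members and for 0% of all probes. At an unadjusted p under 0.05 it held 1 member probe, ILMN_2485502 of Usp8 (0.36 ± 0.17, adjusted p = 0.9999), beside 2.58% of all probes. Diet differences had the same sign in both genotypes for 35 of 63 members and for 61.0% of all probes.

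**Figure D5:**
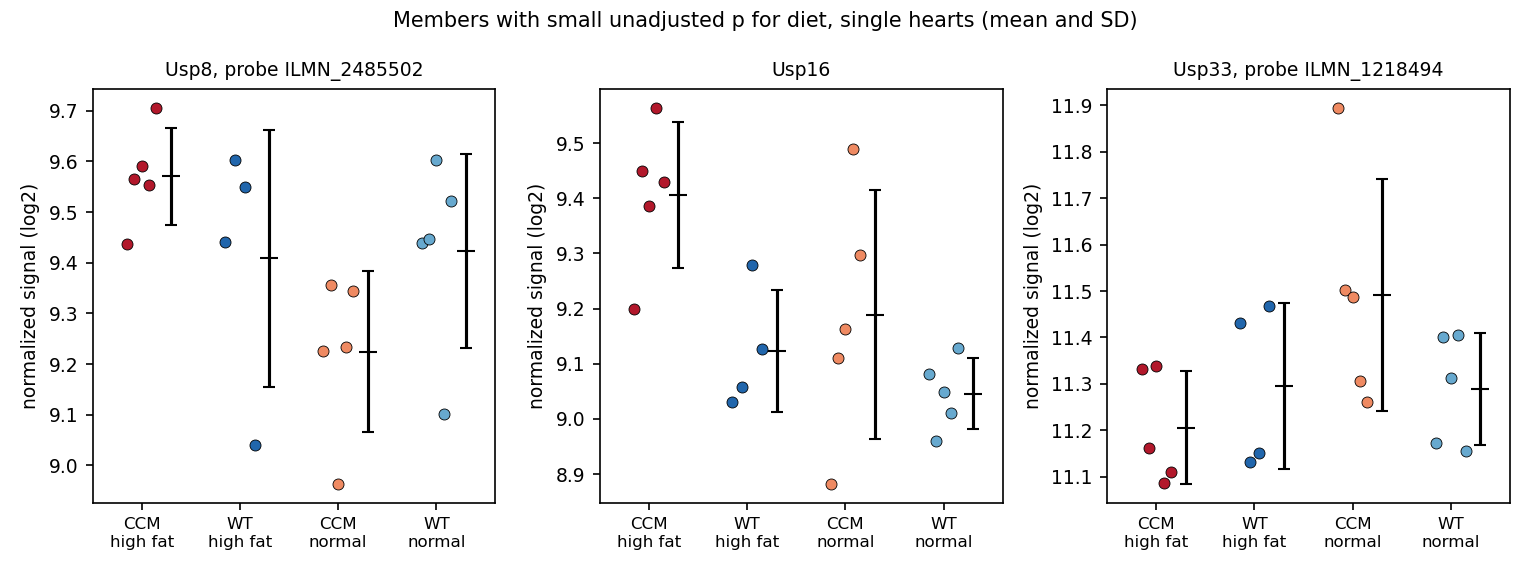
Usp8, Usp16 and Usp33 signal (log2, normalized) in each heart, with the 4 groups on the x axis, a point per animal and the group mean with SD beside the points. The Usp8 probe shown, ILMN_2485502, separates the diets in CCM hearts and not in WT hearts. The other tested Usp8 probe, not shown, overlaps between diets in CCM hearts. No diet difference of these members passed the adjusted test.

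Members also differed with the number of the animal. With the 4 group means in the fit, 11 of 63 member probes differed between the 10 animals numbered under 20 and the 9 numbered over 20, beside 13.8% of all probes. Of the 11, 8 were higher under 20. The labels give the numbers and not what they stand for. Usp28 was higher by 0.80 ± 0.10 under 20 (adjusted p = 2.33e-05) and Usp25 (ILMN_1226508) by 0.59 ± 0.069 (adjusted p = 7.01e-06). Also higher under 20 were Usp10 (ILMN_2443129), by 0.42 ± 0.062, and Usp14 (ILMN_2465766), by 0.26 ± 0.058. Usp5 differed in the other direction, by -0.39 ± 0.067. None of the 4 genes called for genotype was among the 11 probes.

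Other genes of the ubiquitin system were counted with 1 probe per symbol in the genotype comparison averaged over both diets, to be read against the 4.5% of all symbols called. Of 26 deubiquitinases of other families measured (38 listed), 1 rose and 1 fell in CCM hearts. Otub2, of the ovarian tumour family, rose by 0.32 ± 0.08 (adjusted p = 0.0323), and Mpnd, a JAMM-domain protein, fell by 0.28 ± 0.08 on the log2 scale (adjusted p = 0.0379). The Otub2 call was lost without any 1 of 9 animals and the Mpnd call without any 1 of 13 (highest adjusted p = 0.0756, without replicate 3, and 0.0888, without replicate 1, of the WT high fat group). Otub2 was also lost with shifted arrays, with array weights and when the 3 dimmest arrays were dropped, Mpnd with shifted arrays, and both within each part of the animal numbers (adjusted p up to 0.340 for Otub2 and 0.475 for Mpnd). Among 17 measured binding partners of Usp proteins (21 listed), 0 were called. These include Wdr48, the activator of Usp46 and Usp12, with -0.14 ± 0.11 (adjusted p = 0.734). Of 6 ubiquitin and E1 genes, 1 fell, Ube1l, the E1 enzyme for the ubiquitin-like ISG15, by 0.55 ± 0.10 on the log2 scale (adjusted p = 0.00138). The Ube1l call was lost among animals numbered under 20 (-0.33, adjusted p = 0.375), while over 20 the difference was -0.73 (adjusted p = 0.0164). Ube1l also stood in the list of ISG15 and interferon-induced genes, where it was the 1 of 7 called. Of 5 measured genes listed around ligases of clock proteins, 0 were called. For comparison with Usp2, 8 of 12 measured clock genes and outputs were called, 2 higher and 6 lower in CCM hearts. Dbp, an output of the clock, fell by 1.81 ± 0.11 and Tef, its relative, by 1.43 ± 0.08 on the log2 scale (adjusted p = 2.28e-09 and 1.23e-09), while the core factor Arntl rose by 0.98 ± 0.12 (adjusted p = 1.56e-05). The Arntl call was lost among animals numbered under 20 (adjusted p = 0.0526).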

How the data were processed

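Single-colour bead arrays of 19 mouse hearts were used, 1 animal each. The authors deposited average bead signals (linear intensities, not normalized), each beside a detection p-value, per the file headers. The submitters' processing notes name BeadStudio 3. A second table, of intensities the authors had normalized in a way that is not stated in the sources at hand, served as an alternative. Background was corrected with normexp from the detection p-values (offset 16), followed by log2 and quantile normalization (limma 3.58.1, R 4.3.3). Probes detected on at least 4 arrays were kept (19840). A model with 4 group means over all animals was fitted with lmFit and eBayes, with two-sided tests and Benjamini-Hochberg adjustment over all probes tested. The model was tested on simulated data with independent noise and no difference by animal number, so that test does not cover such differences. The number of arrays limits the precision, and fold changes of dim probes are understated. Groups came from the labels. Genes named were Usp2, every called member, the 5 smallest p per comparison, fixed role members, up to 3 genes per other list and Clock. Not every tested probe of these genes is given. Usp21 and Usp42 appear only in the closing sections. Usp10, Usp12, Usp39 and Usp45 were named after their values were seen. Members and lists were chosen with earlier results of these data known. The comparison by animal number was added after seeing the data. Promoters and gene names come from RefSeq (GRCm38.p6). Alternatives covered background correction, normalization, filter, variance model and the animals fitted.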

Additional observations from a re-analysis of the deposited data

Results flagged for a closer look

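Outlying single hearts were looked for in 29 member probes, each in its 4 groups, and 3 of 116 groups held a value far from the others by Dixon's criterion, which chance alone gives in about 1 of 20 groups. Usp42 (ILMN_2594533) read 5.96 in replicate 5 of the CCM normal diet group, where the nearest other heart read 5.72. Usp53 (ILMN_1247395) read 7.60 in replicate 2 of the WT high fat group, below the next value of 7.78. Usp22 (ILMN_2494618) read 7.92 in replicate 1 of the WT high fat group, below the next value of 8.49.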

How the results depend on the processing

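On the normal diet 1 member probe was called; 2 were called without background correction, with an offset of 50, with the authors' normalized values, with no detection filter, with probes detected on all arrays, with 1 probe per symbol, with a trended and robust eBayes and with the block for animal number, and 4 with array weights. All probes were called at 0.585% to 1.88% in the settings with 2, at 2.09% with array weights and at 0.378% to 1.04% in the settings with 0. The count was 0 with arrays shifted to equal medians, with only the groups of the comparison, among animals numbered under 20, among those over 20 and without the 3 arrays of lowest mean signal. On high fat 1 was called, against 2 without background correction and 0 with no detection filter, with only the groups of the comparison, within each part of the animal numbers and without the 3 dim arrays (1.97% of all probes with 2, 0.197% to 1.18% with 0). The average over diets held 5 calls, against 3 with shifted arrays (2.39% of all probes), 4 with 1 probe per symbol (4.82%), 5 with no detection filter and without the dim arrays (1.69% to 3.02%), 6 without background correction, with an offset of 50, with the authors' values, with probes on all arrays and with trended eBayes (4.3% to 5.49%), 7 with array weights (5.75%), 8 with the block (5.26%; 4 higher, Usp16, Usp20, Usp28 and Usp47, and 4 lower) and 0 within each part (0.872% and 1.24%), which hold fewer animals. For diet averaged over genotypes, array weights gave 1 call (Usp2, -0.49, adjusted p = 0.0438, beside 1.12% of all probes). Without each animal in turn the counts ran from 0 to 2 on either diet, from 4 to 6 for the average, and stayed at 0 for diet and interaction. The Usp2 difference on the normal diet was past the threshold with array weights (-0.60, adjusted p = 0.0491), ran from -1.14 (over 20) to -0.29 (under 20, adjusted p = 0.619) over all settings, and from -0.76 to -0.50 without single animals. Its unadjusted exact permutation p was 0.00794 on each diet, the smallest these group sizes allow and fixed by the lack of overlap. On high fat its call was lost with no detection filter (-0.82, adjusted p = 0.0991), with only the groups of the comparison (-0.82, adjusted p = 0.0752), under 20 (-0.99), over 20 (-0.61) and without the dim arrays (-0.73, adjusted p = 0.258), with -0.92 to -0.64 without single animals. Its average was no longer called under 20 (-0.64) or over 20 (-0.88), and ran from -0.80 to -0.66 without single animals. The Usp2 interaction turned positive over 20 (0.53) and without the dim arrays (0.0275), and ran from -0.32 to 0.0296 without single animals; shifting arrays moved the median interaction of all probes to -0.13. Usp20 on the normal diet gained a call in 9 settings. Signs of values that were never called also turned. Over 20 these were diet in CCM hearts for Usp2 (0.0715), diet in WT hearts for Usp21 (0.0068) and Usp46 (0.0649), and genotype averages of Usp8 (0.11), Usp22 (0.10) and Usp9x (-0.0531). Under 20 they were Usp12 (-0.0327) and Usp33 (0.23, ILMN_1232781). With array weights they were Usp7 (-0.0016), Usp25 (0.0258) and Usp30 (-0.0437), with shifted arrays Usp7 (-0.0250) and Usp30 (-0.0227), and without the dim arrays Usp8 (0.00719). Without single animals Usp7 ran from -0.0183 to 0.0341, Usp8 from -0.0791 to 0.0149, Usp9x from -0.000768 to 0.13 and Usp30 from -0.0471 to 0.0466. The cause of these changes was not tested. No paired analysis was possible because the labels give animal numbers that differ between groups and no shared replicate numbers. A block for chip was not run because the column headers name no chips, and a fit of only the groups of the comparison gives no value of its own for averages and interaction.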
